A study of Sus scrofa with 48 samples.

Results

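The glycolysis and glycogen metabolism genes of pig longissimus muscle were described across 2 selection lines and 2 diets. The set lists 40 gene names, covering the enzymes from hexose phosphorylation to lactate, the enzymes that store and break down glycogen, their regulatory subunits, and the pyruvate dehydrogenase step. Members were the array probes whose annotated gene name, or whose description in brackets, gave one of these names, and whose signal exceeded the background clearly on 12 or more of the 48 arrays. Of the 40 names, 34 had a tested probe, with 106 probes in all, among 42125 tested probes. No probe carried the names PFKL, PFKP, PGAM1, BPGM, PKM or PYGB, although PKM2 is an older symbol of PKM and was measured under that name. One further probe, of GPI, did not pass the filter.

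The 48 pigs were purebred Large White barrows of a low and a high residual feed intake (RFI) line. RFI is the feed eaten beyond that predicted from growth and maintenance, so that low RFI pigs are the more efficient ones. The pigs were growing-finishing animals, whose age the labels do not give, and the lines came from several generations of divergent selection. Both lines had free access to a diet high in fat and fiber (HF) or a diet low in fat and fiber (LF), with 12 pigs in each of the 4 groups and 1 one-colour Agilent array per pig. Line and diet were therefore the only labelled differences, and neither line is an unselected control.

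In muscle, glucose and glycogen converge on glucose 6-phosphate, which glycolysis splits into pyruvate. Fast-twitch fibres, the main fibre type of longissimus, rely on this route and turn much of the pyruvate into lactate, whereas slow fibres oxidise more of it. Several steps have a muscle isoform beside a form found in other cells, such as the beta enolase ENO3 beside the alpha enolase ENO1. In bulk muscle, a change in the number of cells of a type and a change in RNA per cell cannot be told apart.

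Levels are the log2 of the spot signal minus the mean of all tested probes on that array, so that 0 is the average probe. Line differences are high RFI minus low RFI, averaged over both diets, and diet differences are HF minus LF. The own probe of a gene is its tested probe with the highest mean level. The arrays lay on 6 slides with 2 arrays of each group on each slide. The median spot signal per array ran from 55.6 to 107.9 in the high RFI line and from 52.8 to 79.3 in the low RFI line. The labelled tissue was borne out by its pan-muscle markers ACTA1, CKM, MB and DES, all measured, with mean levels from 8.26 to 8.81 in the high RFI line and from 8.28 to 8.76 in the low RFI line.

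Most own probes of the pathway had a difference below 0, and the changes that passed the test were small. By own probe, HK1 was higher and FBP2, PGAM2, ENO3, PYGM and GSK3B were lower in high RFI pigs, by 0.14 to 0.28 on the log2 scale. These are 6 of 34 genes (17.6%) at an adjusted p under 0.05 in limma, while 16.4% of all tested probes passed, 6.57% as higher and 9.85% as lower. The share among the members was thus near the background. Among the 106 member probes, 14 passed (13.2%), 4 as higher and 10 as lower. For 28 of 34 genes the own probe was below 0, as were 24535 of all 42125 tested probes. Own probes had a median line difference of -0.075 against -0.029 over all tested probes. After quantile normalization, which makes the distribution of values the same on all arrays, they were below 0 for 21 of 34 genes. Their median was then -0.010 against -0.023 over all tested probes. The probe calls were 3 higher and 4 lower (6.6% of member probes), while 14.9% of all tested probes passed. The 106 probes are not 106 separate readings. Probes of a gene that share a run of at least 20 bases were counted as 1 stretch, which gave 86 stretches, and the 14 probes past the threshold fell on 11 of them.

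**Figure D1:**
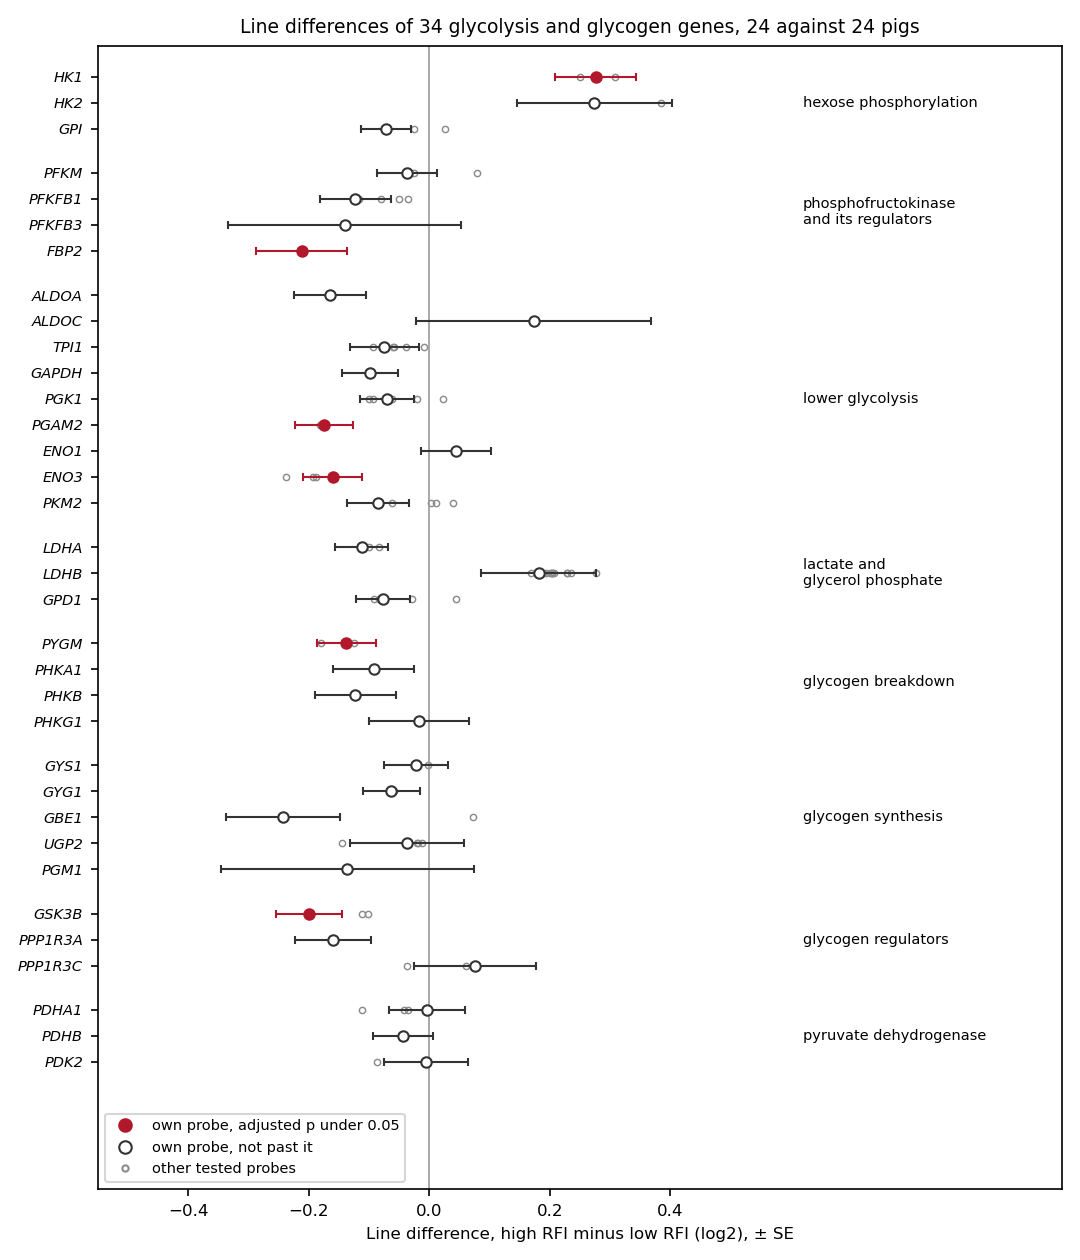
Line differences (high RFI minus low RFI, log2, x axis) of 34 glycolysis and glycogen genes (rows, grouped by role), with the own probe and its standard error as a large circle, filled where the adjusted p was under 0.05, and the other tested probes as small open circles. Only HK1 among the filled circles lies right of 0, and 28 of 34 own probes lie left of it. Of all 42125 tested probes, not shown here, 24535 were below 0.

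The hexokinases, which trap glucose as glucose 6-phosphate, were the members with the largest positive differences. HK1 is the form found in most cells. Its own probe, A_72_P352783, ran from 2.72 to 3.57 in low RFI pigs (median 3.07) and from 2.88 to 3.94 in high RFI pigs (median 3.38). The lines overlapped, but 20 of 24 high RFI pigs lay above the low RFI median. The line difference was 0.28 (SE 0.068, adjusted p = 0.00386, limma), a ratio of 1.21. It was positive on all 6 slides, from 0.082 to 0.52.

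In high RFI pigs all 3 HK1 probes had higher levels, with differences of 0.25 to 0.31, but they read 1 place in the transcript. A_72_P352783 and O5171 share 55 bases, and A_72_P541893 differs from A_72_P352783 at a single base, C25T counted from the 5′ end of the probe. The window around it is shown 5′ to 3′ with that base in capitals, because it shows why the 3 probes count as 1 reading.
HK1 A_72_P352783: atcgcttttgtgagCcatgtcgtatgacc
HK1 O5171: atcgcttttgtgagCcatgtcgtatgacc
HK1 A_72_P541893: atcgcttttgtgagTcatgtcgtatgacc
Macrophage markers (CD68, CD163, CD14, CSF1R and LYZ, 5 of 5 measured) were also higher in the high RFI line, at 8 of 14 probes, beside 6.57% of all tested probes. Their mean level ran from -2.17 to 0.92 in high RFI pigs and from -2.86 to -1.05 in low RFI pigs. Their part in the HK1 difference was not tested.

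HK2 is the insulin-responsive form of muscle. Its own probe ran from 2.05 to 3.91 in low RFI pigs (median 2.89) and from 1.61 to 3.88 in high RFI pigs (median 3.34), so the ranges overlapped almost fully. The line difference was 0.27 (SE 0.13, adjusted p = 0.137). The second, dimmer probe A_72_P071346 passed at 0.38 (SE 0.13, adjusted p = 0.0374). Without the array of the highest median signal (the brightest array, from the high RFI line fed HF), the own probe passed as well, at 0.34 (adjusted p = 0.0291). By diet, the difference at the own probe was 0.029 on HF and 0.52 on LF, which did not differ past the threshold (interaction adjusted p = 0.999). GPI, which interconverts glucose and fructose 6-phosphate, differed by -0.071 (adjusted p = 0.243), and its 3 other tested probes by -0.075 to 0.026.

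Around phosphofructokinase, the committed step, 1 gene of 4 measured changed. FBP2, the muscle fructose-1,6-bisphosphatase that runs this step backwards, had 1 probe. It ran from 6.09 to 6.92 in low RFI pigs (median 6.56) and from 5.83 to 6.92 in high RFI pigs (median 6.21). The difference was -0.21 (SE 0.075, adjusted p = 0.0446), with 18 of 24 high RFI pigs below the low RFI median. The adjusted p was 0.0604 without the brightest array and 0.164 after quantile normalization, with a range of 0.0284 to 0.164 over the 12 other settings tried, and the call was lost under 6 of them. The difference was negative on 5 of 6 slides. PFKM, the muscle phosphofructokinase, showed a difference of -0.037 (SE 0.050, adjusted p = 0.651), with its 3 probes between -0.037 and 0.079. PFKFB1 and PFKFB3, bifunctional enzymes that set the activator fructose 2,6-bisphosphate, differed by -0.12 and -0.14 (adjusted p = 0.148 and 0.662). PFKFB3 varied among pigs of the same group with an SD of 0.69, against 0.20 for PFKFB1.
FBP2 O8848: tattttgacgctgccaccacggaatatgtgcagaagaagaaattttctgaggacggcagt
This is the 1 probe on which the FBP2 result rests, 60 bases, 5′ to 3′, in lower case throughout.

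In lower glycolysis, the muscle forms ENO3 and PGAM2 fell at every probe. ENO3, the beta enolase of mature muscle, makes phosphoenolpyruvate. Its own probe O8712 ran from 10.28 to 10.96 in low RFI pigs (median 10.68) and from 10.16 to 10.76 in high RFI pigs (median 10.53). The ranges overlapped, and 21 of 24 high RFI pigs lay below the low RFI median. The difference was -0.16 (SE 0.049, adjusted p = 0.0206), and those of the 3 other probes were -0.19, -0.19 and -0.24 (adjusted p = 0.00512, 0.00525 and 0.00427). Within slides the own probe differed by -0.27 to -0.041, below 0 on all 6. The 4 probes cover 3 stretches. The sequences of 3 of them, 5′ to 3′, show that A_72_P641194 and A_72_P637644 share the 41 bases in capitals, while A_72_P035996, with the largest difference, reads another place.
ENO3 A_72_P641194: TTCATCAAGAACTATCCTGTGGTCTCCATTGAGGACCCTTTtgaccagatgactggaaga
ENO3 A_72_P637644: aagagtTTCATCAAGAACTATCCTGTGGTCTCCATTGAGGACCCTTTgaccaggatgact
ENO3 A_72_P035996: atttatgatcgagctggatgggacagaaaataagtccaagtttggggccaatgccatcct

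PGAM2, the muscle phosphoglycerate mutase, converts 3-phosphoglycerate into the substrate of enolase. At its own probe O14582 low RFI pigs ran from 9.44 to 10.09 (median 9.73) and high RFI pigs from 9.18 to 9.84 (median 9.61). The difference was -0.17 (SE 0.048, adjusted p = 0.00973), below 0 on all 6 slides. The second probe gave -0.18 (SE 0.051, adjusted p = 0.0110), and 21 of 24 high RFI pigs lay below the low RFI median there. The sequences share no run of 20 bases, so the PGAM2 probes are separate readings.
PGAM2 O14582: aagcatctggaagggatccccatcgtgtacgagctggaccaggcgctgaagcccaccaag
PGAM2 A_72_P260562: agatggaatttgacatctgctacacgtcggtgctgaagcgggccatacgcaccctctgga

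The scaling between arrays mattered for ENO3 and PGAM2. After quantile normalization their differences were -0.077 (adjusted p = 0.0779) and -0.065 (adjusted p = 0.126), and with no filter on dim probes -0.15 (adjusted p = 0.0927) and -0.17 (adjusted p = 0.0696). Both passed under the 10 other settings. Fast fibre markers (10 of 11 measured, without ACTN3) fell at 20 of 49 probes and rose at none, beside 9.85% of all tested probes that were lower. Their mean level ran from 8.56 to 9.05 in high RFI pigs and from 8.74 to 9.21 in low RFI pigs. Pan-muscle markers also fell at 6 of 33 probes (median -0.09) and rose at none. Fibroblast markers rose at 4 of 25 probes, beside 6.57% of all tested probes. The part of these markers in the ENO3 and PGAM2 differences was not tested.

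The other genes of lower glycolysis did not pass. ALDOA, the muscle aldolase, ran from 8.93 to 9.75 in low RFI pigs (median 9.23) and from 8.67 to 9.36 in high RFI pigs (median 9.13). Its difference of -0.165 (SE 0.060, adjusted p = 0.0502) was just outside the threshold. It passed under 6 of 12 other settings, among them slide as a block (adjusted p = 0.0265), and stayed outside after quantile normalization. GAPDH differed by -0.098 (adjusted p = 0.143), PGK1 by -0.069 (adjusted p = 0.295) and PKM2, the pyruvate kinase, by -0.085 (adjusted p = 0.266). The 5 PKM2 probes disagreed, from -0.085 at the own probe to 0.039, with 3 above 0. The 7 PGK1 probes ran from -0.10 to 0.024, with 1 above 0. TPI1, the triose phosphate isomerase, had 6 probes with differences from -0.094 to -0.0085, none past the threshold. At its own probe the difference was -0.074 (adjusted p = 0.395) and turned to 0.041 after quantile normalization (adjusted p = 0.616). TPI1 probes A_72_P073361 and A_72_P532638 have the same sequence and gave -0.059 and -0.059.

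In lower glycolysis, the isoforms that are not typical of muscle, ENO1 and ALDOC, did not pass, unlike the hexokinase HK1 above. ENO1, the alpha enolase, ran from 3.87 to 4.57 in low RFI pigs and from 3.59 to 4.53 in high RFI pigs, and differed by 0.045 (SE 0.059, adjusted p = 0.643). ALDOC, an aldolase better known from brain, differed by 0.17 (SE 0.20, adjusted p = 0.579), and ran from 0.28 to 3.04 in low RFI pigs and from 0.75 to 2.99 in high RFI pigs. By diet, the ALDOC difference was 0.47 on HF and -0.12 on LF (adjusted p = 0.294 and 0.876). These did not differ past the threshold (interaction adjusted p = 0.999). Whether the isoforms of a pair differed from each other in their response was not tested.

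Of the 2 lactate dehydrogenase chains, LDHA, which favours lactate formation in fast muscle, differed by -0.11 (SE 0.043, adjusted p = 0.0685), and LDHB, the chain of heart and slow fibres, by 0.18 (SE 0.096, adjusted p = 0.188). LDHA ran from 9.81 to 10.30 in low RFI pigs (median 9.99) and from 9.38 to 10.12 in high RFI pigs (median 9.91). LDHB ran from 4.58 to 6.04 in low RFI pigs (median 5.27) and from 4.97 to 6.07 in high RFI pigs (median 5.57). All 13 LDHB probes, which cover 7 stretches, were positive, from 0.17 to 0.28, and none passed. GPD1, which makes glycerol 3-phosphate and regenerates NAD, differed by -0.077 (adjusted p = 0.240). Its 5 probes ran from -0.0916 to 0.0445, with 1 above 0.

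In glycogen breakdown, PYGM changed and the phosphorylase kinase subunits did not pass. PYGM, the muscle glycogen phosphorylase, releases glucose 1-phosphate. At its own probe A_72_P516452 low RFI pigs ran from 8.31 to 8.98 (median 8.64) and high RFI pigs from 8.12 to 8.79 (median 8.52), with 21 of 24 high RFI pigs below the low RFI median. The difference was -0.14 (SE 0.049, adjusted p = 0.0445). Probe O13134 gave -0.18 (SE 0.061, adjusted p = 0.0341) and A_72_P574044 gave -0.12 (SE 0.055, adjusted p = 0.113). The last shares the 38 bases in capitals with the own probe, whereas O13134 has another sequence. The median level at O13134 was 1.31 for the low line and 1.09 for the high line. Which strand it reads was not checked and may be the opposite one. O13134 is therefore not taken as a second reading of PYGM, although the 11 stretches past the threshold given above include it.
PYGM A_72_P516452: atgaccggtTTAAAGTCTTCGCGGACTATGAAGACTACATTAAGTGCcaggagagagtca
PYGM A_72_P574044: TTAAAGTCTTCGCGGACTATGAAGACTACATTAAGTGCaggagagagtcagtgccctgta
PYGM O13134: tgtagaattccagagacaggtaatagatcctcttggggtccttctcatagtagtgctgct
Within slides the difference at the own probe was negative on 5 of 6, from -0.30 to 0.095. The PYGM call was lost under 5 of 12 other settings. The adjusted p was 0.0686 without the brightest array (-0.12) and 0.745 after quantile normalization (-0.020), and ranged from 0.0253 to 0.745 over all 12.

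Phosphorylase kinase switches PYGM on. PHKB, its beta subunit, had 1 probe, which ran from 3.03 to 3.72 in low RFI pigs (median 3.50) and from 2.71 to 3.96 in high RFI pigs (median 3.39). The difference was -0.12 (SE 0.067, adjusted p = 0.205). PHKA1, the muscle alpha subunit, differed by -0.092 (adjusted p = 0.357) and PHKG1, the catalytic subunit, by -0.017 (adjusted p = 0.917).

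None of the 5 glycogen synthesis genes passed for the line, although 1 had the most negative own-probe difference of the set. GBE1, the branching enzyme, ran at its own probe from -1.69 to -0.36 in low RFI pigs (median -1.12) and from -2.23 to -0.78 in high RFI pigs (median -1.32), with 16 of 24 high RFI pigs below the low RFI median. The difference was -0.24 (SE 0.095, adjusted p = 0.0711), and its second probe, the dimmest of the 106, gave 0.073 (SE 0.15). GYS1, the muscle glycogen synthase, differed by -0.022 (SE 0.053, adjusted p = 0.819), GYG1, which primes the granule, by -0.063 (adjusted p = 0.378), and UGP2, which makes UDP-glucose, by -0.037 (adjusted p = 0.828).

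PGM1, which interconverts glucose 1-phosphate and glucose 6-phosphate, stood apart in its spread. At its own probe O5322, 12 pigs lay between 7.35 and 7.80 and the other 36 between 8.91 and 9.78, and no pig lay in the gap of 1.11. The same 12 pigs were the lower ones at A_72_P233607, at 7.05 to 7.55 against 8.49 to 9.39. At A_72_P108441 they did not stand apart, at 6.86 to 7.37 against 6.43 to 7.49. The lower pigs came from every group, 4 of low RFI on HF, 2 of high RFI on HF, 2 of low RFI on LF and 4 of high RFI on LF, and from 5 of 6 slides. The next largest gap among own probes was 0.49, for GBE1.

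The first 2 PGM1 probes share a run of 55 bases, of which the first 30 bases are shown 5′ to 3′ in capitals, and share no run of 20 bases with the third. These sequences are given because the separation appeared at the one stretch and not at the other.
PGM1 O5322 and A_72_P233607: GCGACGTAATCCCATTCACACAAAGATTTG
PGM1 A_72_P108441: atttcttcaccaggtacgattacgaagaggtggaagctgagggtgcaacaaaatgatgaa
With this spread the line difference at the own probe, -0.14, had an SE of 0.21 (adjusted p = 0.702). At A_72_P108441 the same difference of -0.14 had an SE of 0.056 (adjusted p = 0.0864).

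**Figure D2:**
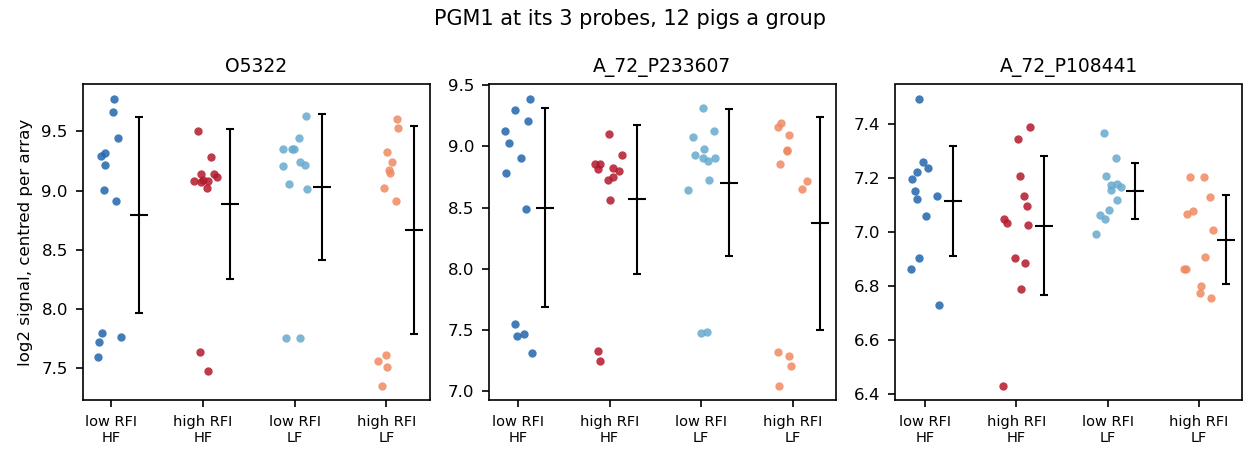
Level of PGM1 (log2 signal centred per array, y axis) in each pig at its 3 probes, by line and diet, with the mean and SD of 12 pigs as bars. At O5322 and A_72_P233607 each group falls into a lower and a higher set of pigs with no pig between 7.80 and 8.91 at O5322, which is not seen at A_72_P108441.

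Among the regulators of glycogen, GSK3B changed with the line and PPP1R3C with the diet. GSK3B, a kinase that inhibits glycogen synthase, ran at its own probe from 2.41 to 3.04 in low RFI pigs (median 2.68) and from 2.16 to 2.84 in high RFI pigs (median 2.51). The difference was -0.20 (SE 0.055, adjusted p = 0.00969), with 19 of 24 high RFI pigs below the low RFI median and a negative value on all 6 slides, from -0.31 to -0.12. It passed under all 12 other settings. The other GSK3B probes gave -0.10 and -0.11 (adjusted p = 0.138 and 0.0675). PPP1R3A, the main glycogen-targeting subunit of protein phosphatase 1 in muscle, differed by -0.16 (SE 0.063, adjusted p = 0.0725).
GSK3B A_72_P611953: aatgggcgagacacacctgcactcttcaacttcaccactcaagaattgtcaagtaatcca
It is the GSK3B probe that passed, and it shares no run of 20 bases with the other tested probes of the gene.

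**Figure D3:**
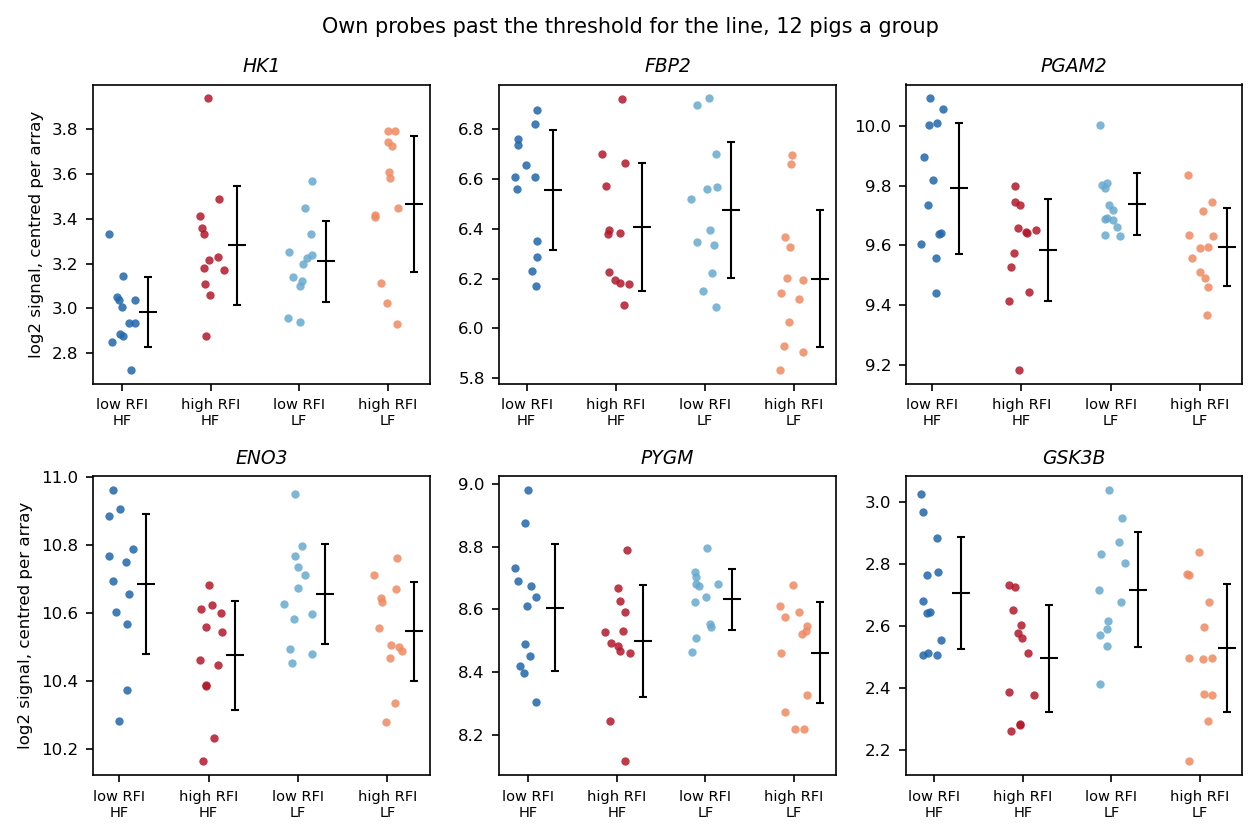
Level (log2 signal centred per array, y axis) of the 6 genes whose own probe passed the test for the line, in each of 12 pigs per line and diet, with the mean and SD beside the points. HK1 sits higher in the high RFI groups on both diets, the other 5 sit lower, and the lines overlap for every gene.

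PPP1R3C, the subunit that targets protein phosphatase 1 to glycogen in many tissues, was the 1 member gene that passed for the diet by own probe. It was lower on HF. At that probe the HF pigs ran from 4.45 to 5.90 (median 5.11) and the LF pigs from 5.02 to 6.43 (median 5.65), overlapping only in part. The diet difference was -0.51 (SE 0.10, adjusted p = 0.0187). A_72_P261022 gave -0.52 (SE 0.11, adjusted p = 0.0254), and O13753 gave -0.17 (SE 0.084, adjusted p = 0.389). The 3 probes share no run of 20 bases, and the probe that gave the largest difference is printed 5′ to 3′.
PPP1R3C A_72_P261022: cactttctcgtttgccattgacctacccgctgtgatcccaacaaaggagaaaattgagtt
Within the low RFI line the diet difference at the own probe was -0.69 (SE 0.14, adjusted p = 0.0217), and within the high RFI line -0.32 (adjusted p = 0.902). These differences were not shown to differ from each other (interaction 0.37, adjusted p = 0.999). The line difference of PPP1R3C was 0.076 (adjusted p = 0.648).

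**Figure D4:**
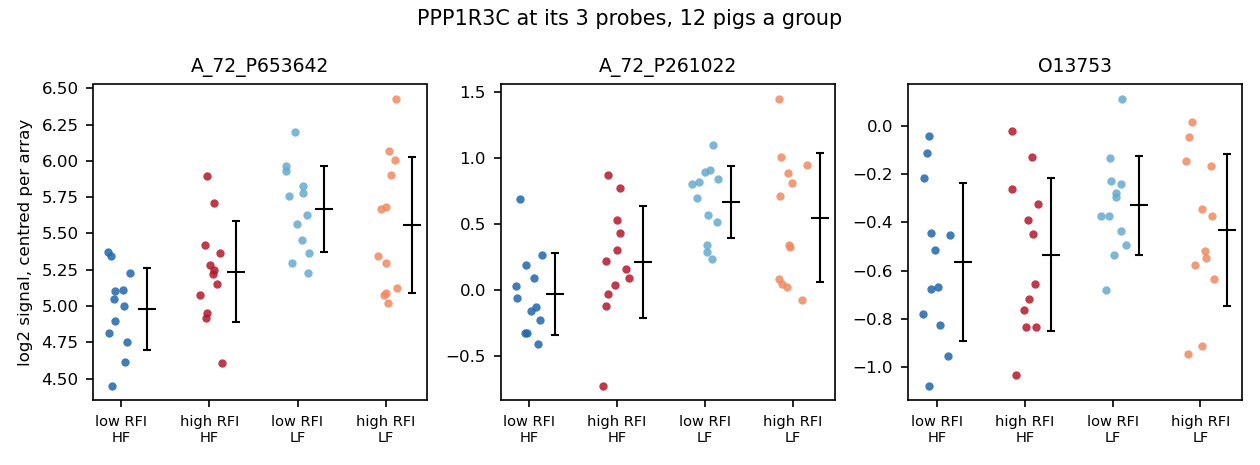
Level of PPP1R3C (log2 signal centred per array, y axis) in each pig at its 3 probes, by line and diet, with the mean and SD of 12 pigs. At A_72_P653642 and A_72_P261022 the HF groups sit below the LF groups of the same line, by -0.51 and -0.52 on average, while at O13753 the difference is -0.17.

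None of the 3 pyruvate dehydrogenase genes passed, and their line differences at the own probes were close to 0. PDHA1 and PDHB, subunits of the E1 component, differed by -0.0031 (SE 0.063, adjusted p = 0.981) and -0.044 (SE 0.050, adjusted p = 0.587). PDK2, the kinase that switches the complex off, differed by -0.0054 (SE 0.069, adjusted p = 0.969) at a dim own probe, with a mean level of -1.67. The 5 PDHA1 probes ran from -0.11 to -0.0005 and the 2 PDK2 probes from -0.087 to -0.0054, with none past the threshold.

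Taken by diet, the calls among members were few. For the line on the HF diet, 5 of 106 member probes passed, against 6.39% of all tested probes. They were the HK1 probes O5171 (0.40, adjusted p = 0.0219) and A_72_P352783 (0.30, adjusted p = 0.0499) and 3 ENO3 probes, from -0.26 to -0.22. The count was 1 without the brightest array, which belonged to that comparison, beside 6.09% of all tested probes. For the line on the LF diet no member probe passed in limma, against 2.47% of all tested probes. At an unadjusted p under 0.05 there were 16 of 106 member probes and 6940 of all 42125, which are near the same share. The diet difference passed at 2 of 106 probes, both of PPP1R3C, against 0.42% of all tested probes. The same probes passed for the diet within the low RFI line, where 0.199% of all tested probes passed, and within the high RFI line no probe passed (0%). At an unadjusted p under 0.05 there were 6 of 106 member probes and 2303 of all 42125, again near the same share. The line by diet interaction gave no call among members or all tested probes (0%), and no member probe had an unadjusted p under 0.05.

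Many, but not all, of these genes varied together among pigs of the same group. Correlations were taken over the 48 pigs on the own probes after removal of the 4 group means, so that they hold no line or diet difference, with permutations within groups (100000, smallest possible p of 1e-05). The points share the array centring. Of 561 gene pairs, 49 had a Pearson r above 0.6 and 12 had an r under -0.4. FBP2 and ALDOC varied most in opposite directions (r = -0.56, rho = -0.57, permutation p = 9e-05 and 2e-05, adjusted p = 0.000742 and 0.000249), with r = -0.55 without the 2 pigs farthest on the x axis and -0.44 and -0.71 within the 2 scan days. ALDOA and PYGM varied most closely (r = 0.87, Spearman's rho = 0.83, permutation p = 1e-05 for both, adjusted p = 0.000125 and 0.000144), with r = 0.83 without the 2 pigs farthest on the x axis and 0.89 and 0.84 within the 2 scan days. The phosphorylase kinase subunits PHKA1 and PHKB, from different probes and genes, had r = 0.83 and rho = 0.77 (adjusted p = 0.000125 and 0.000144), r = 0.79 without the farthest 2 pigs, and 0.77 and 0.87 by scan day.

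A group of 12 genes of the main route (PKM2, GPD1, PGAM2, LDHA, PGK1, TPI1, GAPDH, PYGM, ALDOA, GPI, PFKM and ENO3) followed the mean level of the fast fibre markers with r from 0.63 to 0.84. For PGAM2, r was 0.81 and rho 0.82 (adjusted p = 0.000106 and 0.0001 over 170 relations), with r = 0.81 without the farthest 2 pigs and 0.90 and 0.78 by scan day. The same genes also went against the array median signal, with r from -0.82 for LDHA to -0.47 for TPI1. For LDHA, GAPDH, ENO3, GPI and PFKM this r was larger in size than that with the fast fibre markers. For the other genes of the group it was smaller. PGAM2 had r = -0.79 and rho = -0.76 (adjusted p = 0.000106 and 0.0001), -0.73 without the farthest 2 arrays, and -0.84 and -0.87 by scan day. LDHB went with the slow fibre markers instead (r = 0.77, rho = 0.79, adjusted p = 0.000106 and 0.0001), with 0.75 without the farthest 2 pigs and 0.72 and 0.83 by scan day. Slow fibre markers (8 of 9 measured, without MYL3) had 4 of 48 probes past the threshold, all higher in high RFI pigs, near the 6.57% of all tested probes, with mean levels of 5.71 to 6.87 in high RFI pigs and 5.81 to 6.89 in low RFI pigs, and their part in the LDHB values was not tested.

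ALDOC and HK1 followed markers of other cells. ALDOC went with the adipocyte markers (ADIPOQ, PLIN1, LEP, FABP4, CIDEC and LPL, 6 of 6 measured) at r = 0.94 and rho = 0.93 (adjusted p = 0.000106 and 0.0001), with 0.93 without the farthest 2 pigs and 0.95 in each scan day. Averaged over diets, these markers passed as higher in the high RFI line at 8 of 32 probes, beside 6.57% of all tested probes. By diet the direction was not the same. On HF all 32 probes were above 0 (median difference 0.41), and on LF 23 of 32 were below 0 (median -0.17). Their mean level ran from 0.84 to 2.62 in high RFI pigs (median 1.51) and from 0.56 to 2.41 in low RFI pigs (median 1.63). HK1 went with the macrophage markers at r = 0.57 and rho = 0.50 (permutation p = 0.00038 and 0.00078, adjusted p = 0.00229 and 0.00491). Without the 2 pigs farthest in macrophage markers r was 0.36, and by scan day it was 0.65 and 0.47. Other genes went against these markers, most of all PFKFB1 (r = -0.51, rho = -0.54, permutation adjusted p = 0.00201 and 0.000425). Its r was -0.53 without the farthest 2 pigs, and -0.37 and -0.63 by scan day. The most negative r with the adipocyte markers were those of GPI (-0.50), LDHA (-0.49) and FBP2 (-0.47). PPP1R3C followed none of the 4 marker sets, with r between -0.13 and 0.093.

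**Figure D5:**
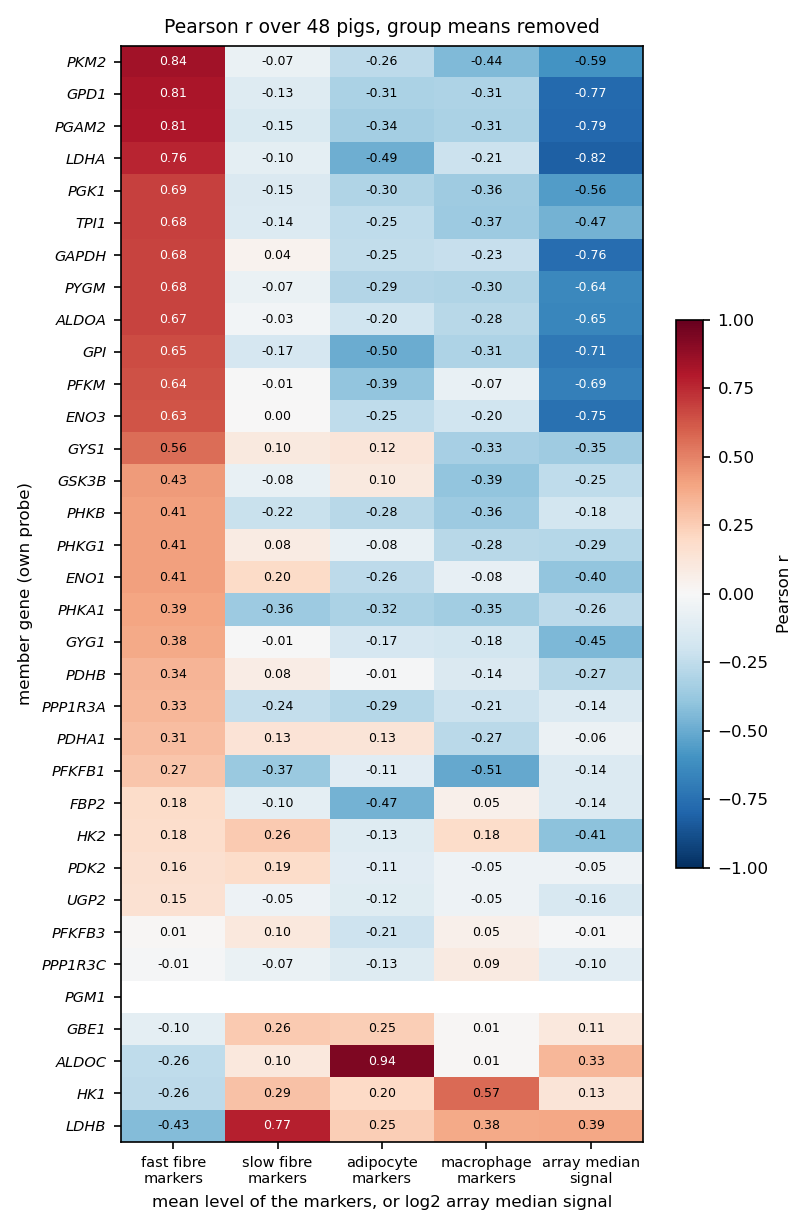
Pearson r over 48 pigs, group means removed, between each of 34 genes (rows) and the mean level of fast fibre, slow fibre, adipocyte and macrophage markers or the log2 median signal of the array (columns), with red above 0 and blue below, and PGM1 blank because its pigs fell into separate sets. The 12 uppermost genes have r from 0.63 to 0.84 with fast fibre markers and below 0 with the array signal, LDHB has 0.77 with slow fibre markers, and ALDOC has 0.94 with adipocyte markers.

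Other genes of the pathway, not members, were read with the same rule. Of 47 listed, 35 had a tested probe, and 7 passed for the line by own probe (20%), 6 as lower and 1 as higher, beside 16.4% of all tested probes. Their median difference was -0.021. PRKAG3, the AMPK gamma subunit known for its effect on muscle glycogen in pigs, differed by -0.40 (SE 0.094, adjusted p = 0.00267), and PGM2L1, a relative of PGM1 that makes glucose 1,6-bisphosphate, by -0.43 (SE 0.10, adjusted p = 0.00302). EPM2A, the glycogen phosphatase laforin, differed by -0.19 (adjusted p = 0.0188), PDK1, a kinase of pyruvate dehydrogenase, by -0.23 (adjusted p = 0.00256), and HK3 by -0.22 (adjusted p = 0.0226). PDP1, the phosphatase that opposes the PDK enzymes, was higher by 0.36 (SE 0.11, adjusted p = 0.0215). PPP1R3B, a relative of PPP1R3C, had a diet difference of -0.42 (adjusted p = 0.0397).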

How the data were processed

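Longissimus muscle RNA of 48 barrows was labelled with Cy3 and hybridised on 1 array each. The authors deposited background-subtracted spot intensities of each array, read with Agilent Feature Extraction. They also deposited log2 values of 34472 probes, which matched the median signal centred on each array's median and served as an alternative. Per the labels, R 2.10.0 was used upstream.

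Control and outlier spots were left out. Probes called well above background by the scanner software on 12 arrays or more were tested (42125, with 169 missing values), and each array's log2 signal was centred on their mean. The 4 group means were fitted with limma 3.58.1 (R 4.3.3), with Benjamini-Hochberg adjustment at 0.05. In data simulated for the line comparison with independent normal noise, 200 of 41957 probes were changed. Of these, 30% were recovered at a difference of 0.25, 80% at 0.5 and 96% at 1. In the real data 16.4% of all tested probes passed for the line, which makes the adjusted threshold less strict. The simulated rates therefore do not carry over to these data. The number of arrays limits the precision. Alternatives covered scaling, background, filter, outlier spots, slide and scan day as blocks, the deposited table, the variance analysis of the study's methods, a left-out array and the mean of a gene's probes.

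The members, gene lists and tests were chosen with earlier results of these data known. Genes named in full were those past the threshold by own probe, the 5 largest line differences each way, PYGM, PHKB and TPI1, and the isoform sets. Probe sequences are those of the array design in the deposited files. No genome build was given, so probe positions and the strand they read were not checked. The labels do not say whether pigs were littermates, and p-values measure the spread between these pigs. One of the other pathway genes that passed is not reported here by name.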

Additional observations from a re-analysis of the deposited data

How the results depend on the processing

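HK1 and GSK3B passed for the line under all 12 other settings, HK1 with differences of 0.27 to 0.30 and GSK3B with -0.21 to -0.14. Quantile normalization and no filter on dim probes each left 7 member probes (3 higher, 4 lower) and 2 member genes, HK1 and GSK3B in both. With quantile normalization this was 6.6% of member probes, beside 14.9% of all tested probes. With no filter it was 6.54% of member probes, beside 6.42% of all tested probes. The cause of the lower counts was not tested for either setting. With no filter more probes entered the centring, the fit and the adjustment. Member probes at an unadjusted p under 0.05 in limma also went from 39 to 29. Quantile normalization also moved the median over member genes to -0.010 and reversed TPI1 to 0.041. Within the first slide, with 2 arrays of each group, FBP2 was at 0.045 and PYGM at 0.095, against their negative differences over all slides. For the line on the HF diet, the share of all tested probes that passed under a setting is given in brackets. The 5 member probes (6.39%) became 1 with quantile normalization (5.65%) and 0 with no filter (1.33%). At an unadjusted p under 0.05 in limma, 12 member probes passed with no filter. The count was 8 in the deposited table (7.33%), 9 with slide as a block (9.94%) and 1 without the array of the highest median signal (6.09%). For the line on the LF diet, no member probe passed, beside 2.47% of all tested probes. With that share again in brackets, 1 passed with centring on the 75th percentile (2.67%) and 1 with only probes well above background on all arrays (3.06%). Likewise, 1 passed with slide (3.35%) and 1 with scan day as a block (2.8%), and 1 without the array of the highest median signal (2.69%). The diet difference lost both PPP1R3C probes with no filter, where the own probe of PPP1R3C had an adjusted p of 0.0753 in limma. Under that setting 0 member probes passed, with 15 at an unadjusted p under 0.05 in limma, beside 0% of all tested probes. No paired analysis was possible because the labels give every pig the same replicate number. Probes near the background, such as the second probe of GBE1, limit what their genes can show.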
